A study of Homo sapiens with 4 samples.

Results

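Nuclear lamina genes were followed in H1299, an established human lung cancer cell line without p53 of its own, before and after mouse p53 was switched on from a stably carried tet-on construct. The members were LMNA, LMNB1, LMNB2, LBR, TMPO, EMD, LEMD3 and BANF1, taken as array probe sets whose annotation gives exactly 1 of these gene symbols, with the probe set of highest mean level standing for each gene. All 8 were measured, among 18417 genes tested. The uninduced group held 2 arrays of the construct line before induction, and the induced group 2 arrays of it after doxycycline, which turns the construct on, had been given at 0.5 µg/mL for 24 hours. Cells of both groups carried the construct and grew in medium with tetracycline-free serum. The labels call the mouse p53 wild type and the line a stable line, and do not say whether it is 1 clone. They call the 2 arrays of a group technical replicates, so the p-values below measure only the spread between arrays. No sample received the drug without the construct, so effects of doxycycline and of p53 cannot be told apart.

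The nuclear lamina is the protein meshwork under the inner nuclear membrane. It is built of A-type lamins, made from LMNA and tied to nuclear stiffness and differentiated cells, and B-type lamins, made from LMNB1 and LMNB2, which stay bound to the membrane by a lipid tail. Inner membrane proteins hold the meshwork and chromatin together: LBR, the lamin B receptor, TMPO, which encodes the LAP2 proteins, EMD, which encodes emerin, and LEMD3, which encodes MAN1. The last 3 share the LEM domain, through which they bind BANF1, a small DNA-bridging protein needed to rebuild the envelope after mitosis. Loss of lamin B1 is a known mark of cells in senescence, a lasting arrest that p53 can bring about.

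Stretches before the transcription starts are shown for the lamin genes and TMPO, since these 4 genes had the largest changes among the members. The windows come from RefSeq on GRCh38.p14, which held windows for all 8 genes, 12 in total, each running from 250 bases before to 50 after a start. Capitals mark the letters of the CCAAT box (CCAAT when read forward or ATTGG on the other strand), of E2F-like sites (TTCCCGC here) and of the CHR, the cell cycle homology region (TTTGAA here). The printed stretches are 250 bases long and end at the base before the start, except that of LMNB1, which is 30 bases around its single CCAAT box at the downstream of its 2 starts. They lie at chr12:98515323-98515572 for TMPO (plus strand, the first of 2 starts) and chr5:126776986-126777015 for LMNB1 (plus strand). Those of the other genes lie at chr19:2456960-2457209 for LMNB2 (minus strand) and chr1:156082323-156082572 for LMNA (plus strand, the first of 3 starts).
TMPO: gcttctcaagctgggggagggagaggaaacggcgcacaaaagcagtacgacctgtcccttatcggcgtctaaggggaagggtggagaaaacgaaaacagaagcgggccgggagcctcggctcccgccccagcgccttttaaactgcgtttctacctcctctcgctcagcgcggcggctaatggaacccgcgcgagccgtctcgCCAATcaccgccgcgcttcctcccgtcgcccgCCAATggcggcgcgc
LMNB1: tgcctgctccccATTGGcccatggtagtca
LMNB2: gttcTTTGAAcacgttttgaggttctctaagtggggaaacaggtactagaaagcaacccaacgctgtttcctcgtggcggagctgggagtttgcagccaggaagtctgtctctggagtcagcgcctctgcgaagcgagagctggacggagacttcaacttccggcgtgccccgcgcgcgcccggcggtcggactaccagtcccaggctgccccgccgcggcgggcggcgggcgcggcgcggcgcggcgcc
LMNA: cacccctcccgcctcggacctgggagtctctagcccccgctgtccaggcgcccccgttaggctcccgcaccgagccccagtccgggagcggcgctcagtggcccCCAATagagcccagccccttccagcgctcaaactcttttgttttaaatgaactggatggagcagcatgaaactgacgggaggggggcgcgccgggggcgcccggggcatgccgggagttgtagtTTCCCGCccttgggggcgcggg

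Of the 8 genes, 6 were lower after induction, 1 was higher and 1 did not pass the test (limma's moderated test, Benjamini-Hochberg adjusted p under 0.05 over all genes). Over all genes 24.6% were called lower, 20.6% higher and 45.1% in either direction. At least 2-fold falls were called for 3 of the 8, against 6.77% of all genes, and at least 4-fold falls for 2, against 1.32%. The median log2 difference of the 8 genes was -0.90, beside 0 over all genes tested. The uninduced and induced arrays did not overlap for any of the 8 genes, as for 66.8% of all genes. The call of LEMD3 ended without uninduced array 2 (adjusted p = 0.0529 in limma's test). In all, 8311 genes were called, and this fell to 5043 without uninduced array 1 and 4959 without uninduced array 2, so the background shares rest on these arrays too.

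**Figure D1:**
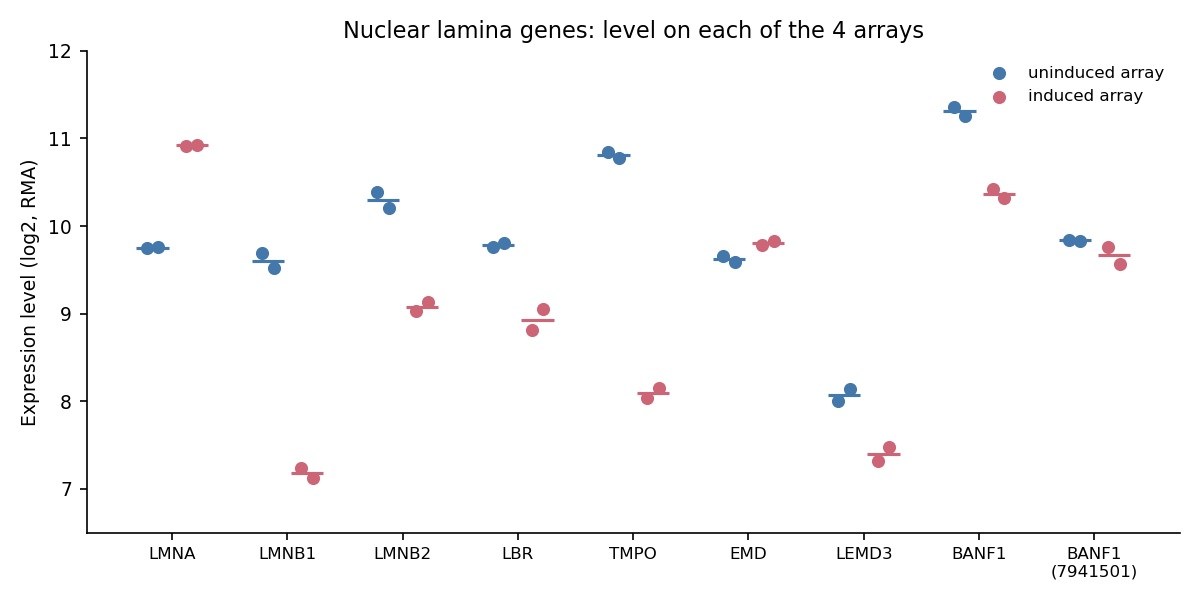
Expression level (log2, RMA) of each nuclear lamina gene on the 2 uninduced arrays (blue) and the 2 induced arrays (red), with a line at each group's mean; the last column is the dimmer BANF1 probe set. LMNB1 went from 9.69 and 9.52 to 7.24 and 7.12, LMNA from 9.75 and 9.76 to 10.91 and 10.93, and the levels of different genes are not comparable because they come from different probes.

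The lamin genes split by type. LMNB1 (probe set 8107706) read 9.69 and 9.52 log2 units on the uninduced arrays and 7.24 and 7.12 on the induced ones. Both induced arrays lay more than 2 units under both uninduced arrays, far outside the spread within either group. The mean fell from 9.61 ± 0.12 to 7.18 ± 0.085 (SD, n = 2 arrays each), a 5.37-fold lower level with a log2 difference of -2.42 (SE 0.0975, 95% interval -2.65 to -2.20, adjusted p = 1.79e-06 in limma's test). Counted from the largest fall, LMNB1 ranked 133 of 18417 genes.

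LMNB2 (probe set 8032491), the second B-type lamin gene, read 10.39 and 10.21 uninduced and 9.03 and 9.13 induced. The log2 difference was -1.22 (SE 0.0972, 95% interval -1.45 to -0.99, adjusted p = 3.83e-05 in limma's test), or 2.33-fold lower. Both B-type genes thus fell, with intervals that do not meet.

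LMNA (probe set 7906085), which yields lamins A and C by splicing, moved the other way. It read 9.75 and 9.76 uninduced and 10.91 and 10.93 induced, the tightest replicates of the 8 genes. The level was 2.24-fold higher, with a log2 difference of 1.17 (SE 0.0808, 95% interval 0.98 to 1.35, adjusted p = 1.96e-05 in limma's test). A single value per gene cannot separate lamin A from lamin C messages.

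**Figure D2:**
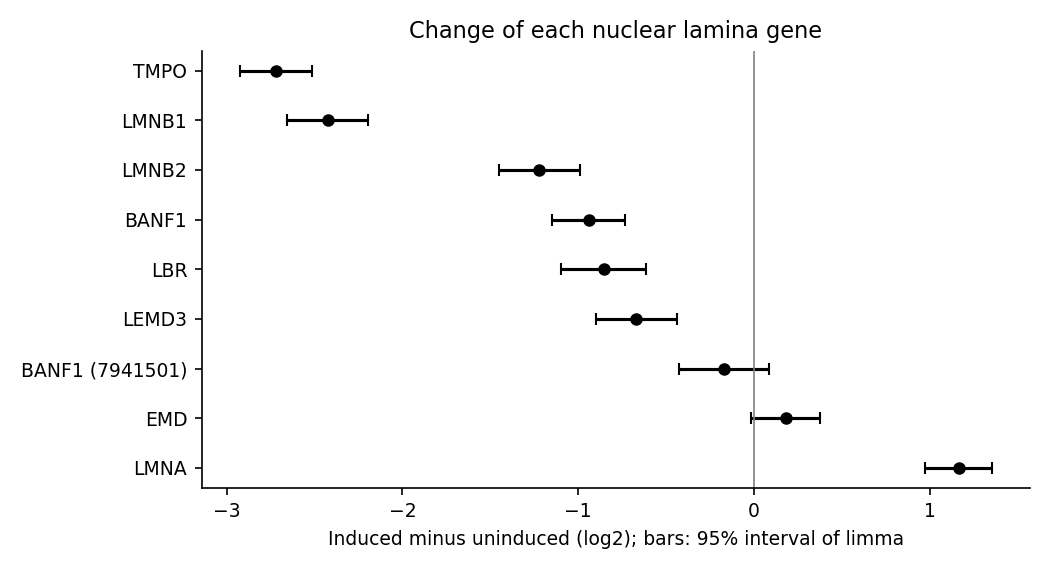
Induced minus uninduced level (log2) of each member with limma's 95% interval, sorted from the largest fall, with the dimmer BANF1 probe set (7941501) as an extra point. TMPO at -2.72 and LMNB1 at -2.42 lie apart from the other falls, which run from -1.22 to -0.67, and LMNA at 1.17 lies alone on the right.

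Setting the lamin genes against each other within an array removes any factor that scales a whole array. The difference LMNB1 minus LMNA was -0.06 and -0.24 log2 units on the uninduced arrays and -3.67 and -3.81 on the induced ones. It therefore shifted by -3.59, a 12.04-fold change of the ratio. The size of the difference on any 1 array has no meaning, since the probes differ, and only its shift between arrays does. For LMNB2 minus LMNA the shift was -2.38, from 0.64 and 0.45 to -1.88 and -1.80. The ratio of the B-type genes to each other also moved, by -1.20, from -0.70 and -0.69 to -1.79 and -2.01. In none of the 3 pairs did the groups overlap, which for the pairs with LMNA already follows from the values of the single genes. An exact two-sided permutation test over the arrays gave p = 0.333 for each of the 3 shifts (also 0.333 after Benjamini-Hochberg adjustment), which is the smallest p that 2 against 2 arrays can give.

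**Figure D3:**
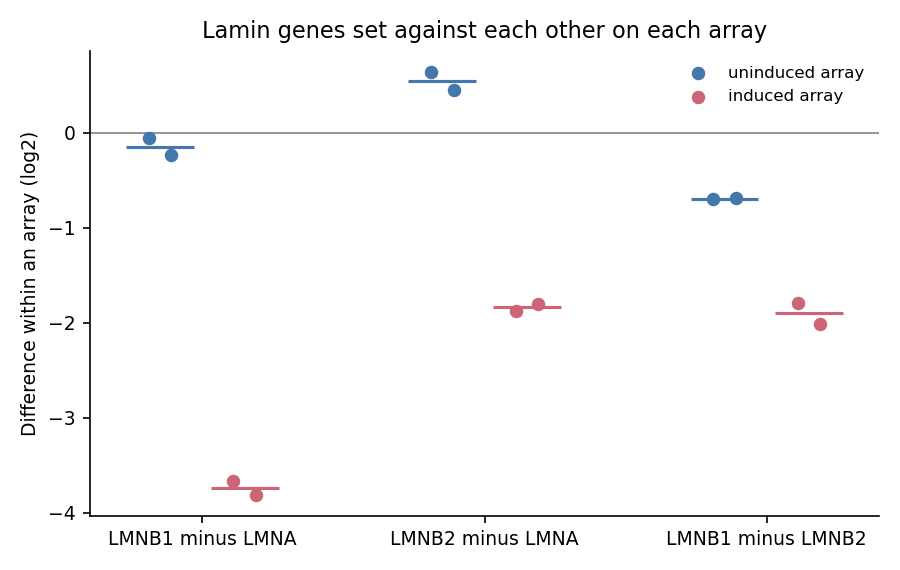
Difference between 2 lamin genes within each array (log2) for the uninduced (blue) and induced (red) arrays, with lines at the group means. LMNB1 minus LMNA moves from a mean of -0.15 to -3.74, and LMNB1 minus LMNB2 from -0.70 (SD 0.007) to -1.90 (SD 0.156).

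Among the inner membrane genes, TMPO (probe set 7957737) had the largest fall of all 8 members. Its 2 uninduced arrays read 10.85 and 10.78 and its induced arrays 8.04 and 8.15. The level was 6.59-fold lower (log2 difference -2.72, SE 0.0876, 95% interval -2.93 to -2.51, adjusted p = 8.67e-07 in limma's test), which placed TMPO at rank 95 from the largest fall. TMPO makes several LAP2 forms by splicing, among them membrane forms that bind B-type lamins and a soluble one that binds lamin A, and the probe set does not tell them apart.

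LBR (probe set 7924603), a lamin B and heterochromatin tether that is also a sterol reductase, read 9.76 and 9.81 uninduced and 8.81 and 9.05 induced. The induced arrays differed by 0.24 units, the widest replicate gap of the 8 genes, yet both stayed under the uninduced ones. LBR was 1.81-fold lower (log2 difference -0.85, SE 0.103, adjusted p = 0.000325 in limma's test). LEMD3 (probe set 7956842), whose product MAN1 also restrains TGF-β signalling by binding SMAD proteins, followed LBR in size. Its values were 8.0 and 8.14 uninduced and 7.32 and 7.48 induced, 1.59-fold lower (log2 difference -0.67, SE 0.0982, adjusted p = 0.000899 in limma's test).

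EMD (probe set 8170850), the emerin gene, did not pass the test. It read 9.66 and 9.59 uninduced and 9.78 and 9.83 induced. Its log2 difference of 0.18 (SE 0.0837) had a 95% interval from -0.017 to 0.38 and an adjusted p of 0.129 in limma's test. With an intensity trend and a robust prior in limma the same difference passed (adjusted p = 0.0364).

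BANF1 was the 1 member with more than 1 probe set, and its 2 probe sets disagreed. The brighter one (8180260) read 11.36 and 11.26 uninduced and 10.42 and 10.32 induced, a 1.92-fold lower level (log2 difference -0.94, SE 0.0888, adjusted p = 8.99e-05 in limma's test). The dimmer one (7941501) read 9.84 and 9.83 uninduced and 9.76 and 9.57 induced, with a log2 difference of -0.17 and an SE of 0.0989 that did not pass (adjusted p = 0.282 with limma over all rows). The mean of both probe sets kept the call with a smaller difference of -0.555 (adjusted p = 0.00146). The call was lost with the dimmer probe set alone. Which of the 2 reports the BANF1 message better was not tested.

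**Figure D4:**
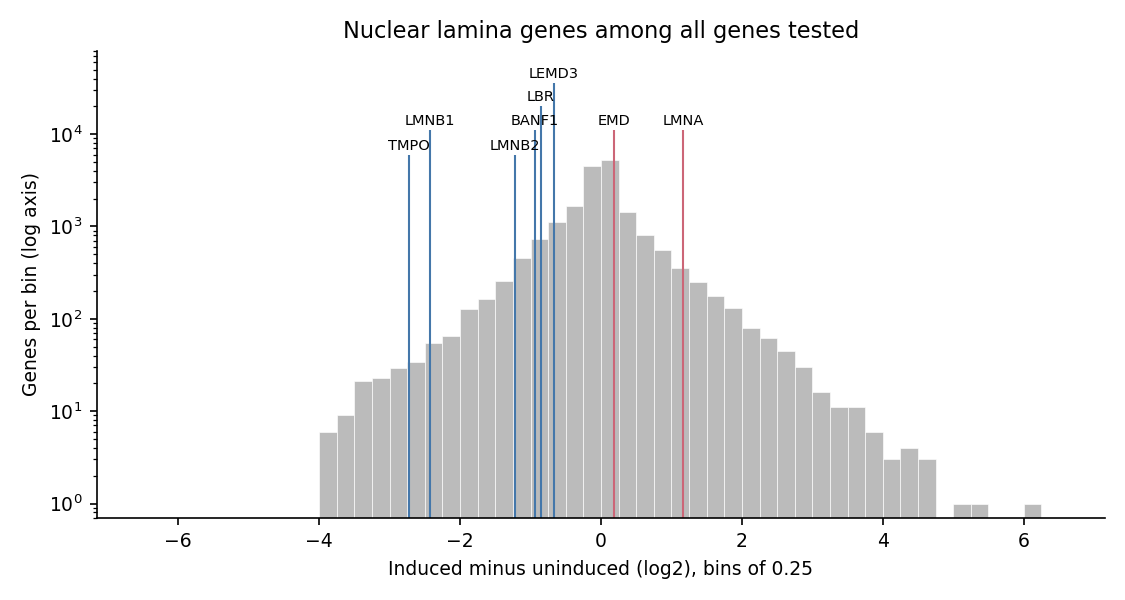
Histogram of induced minus uninduced differences (log2, bins of 0.25, log count axis) over 18417 genes, with vertical lines at the 8 members (blue for differences under 0, red above). TMPO and LMNB1 lie in the thin left tail at ranks 95 and 133, LMNB2, BANF1, LBR and LEMD3 on its shoulder, EMD near the centre and LMNA on the right at rank 948 from the largest rise.

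The promoter windows did not divide the members by direction. The CCAAT letters stood in 6 of the 12 windows, those of 5 of the 8 genes: TMPO, LMNB1 and LEMD3, which fell, LMNA, which rose, and EMD, which was not called. Of all 35116 windows in the table, 34.6% held them. The windows of the 2 TMPO starts overlap and hold the same CCAAT letters, so 1 promoter enters the 6 more than once. TMPO has them 2 times in its printed stretch, at bases -47 to -43 and -15 to -11 from the start, and LMNB1 once at -138 to -134 on the opposite strand. E2F-like letters were searched on both strands, first as TTCGCGC and its close variant TTGGCGC. The further spellings TTCCCGC and likewise also TTTCGCG were counted too. They occurred in 3 of the 12 windows, 1 each of LMNA, LEMD3 and BANF1, against 11.7% of all windows. The CHR letters, searched on both strands as TTTGAA or with the variant spelling TTCGAA, occurred in 1 of the 12 windows, that of LMNB2, at -246 to -241, against 16.4% of all windows. The 10-base p53 decamer motif was in 0 of the 12 windows and in 6.63% of all windows. No 2 of these motifs overlapped in a member's window. A match is a run of letters only, and the array does not measure binding.

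The genes whose 4 array values lay closest to those of LMNB1 after centring each gene on its own mean were TROAP, FOXM1, PHF19, NUP35 and AURKB, with Euclidean distances of 0.064, 0.0865, 0.105, 0.112 and 0.113 log2 units over 4 arrays. FOXM1 encodes a transcription factor of the G2/M programme, AURKB a kinase of mitosis and NUP35 a nucleoporin. Their log2 differences lay between -2.47 and -2.35, beside -2.42 for LMNB1. With 4 arrays in 2 groups this likeness mostly restates the size of the fall.

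Markers of dividing cells mostly fell, as did 6 of the 8 lamina genes, while LMNA rose. Of 6 proliferation genes, 5 fell, each at least 2-fold, and PCNA, the replication clamp, rose 1.51-fold. At least 2-fold falls were called for 6.77% of all genes. MKI67, the proliferation marker, read 10.47 and 10.55 uninduced and 6.96 and 7.05 induced (log2 difference -3.50), and CDK1, the mitotic kinase that phosphorylates lamins at envelope breakdown, 10.21 and 10.33 against 6.67 and 6.98 (-3.44). Their part in the changes of the lamina genes was not tested, and in bulk RNA fewer cells of a kind and less message per cell cannot be told apart.

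Other genes around the lamina were taken in 5 lists by role, and 32 of 35 measured genes were called, 9 higher and 23 lower. Over all genes 45.1% were called, 20.6% higher and 24.6% lower. Both counts were smaller without uninduced array 1 and without uninduced array 2, as was the number called over all genes. The LINC complex couples the lamina to the cytoskeleton through SUN proteins of the inner membrane and nesprins of the outer one. Of its 6 genes, 3 fell and 2 rose, with a median log2 difference of -0.11. SUN1 read 10.43 and 10.46 uninduced and 9.78 and 9.75 induced, 1.60-fold lower (adjusted p = 0.00031 in limma's test). SYNE1 (nesprin-1) was 1.54-fold lower and SUN2 1.20-fold lower, though the SUN2 call ended with either rescaling of the arrays (adjusted p = 0.0968 and 0.0782), with all rows tested (0.0627) and whichever array was left out (0.0579 to 0.163). In contrast SYNE2 (nesprin-2) rose 2.31-fold, from 8.10 and 8.23 to 9.30 and 9.44 (adjusted p = 3.65e-05), and SYNE3 1.39-fold. The SYNE3 call ended without uninduced array 1 or 2 (adjusted p = 0.0506 and 0.0579). SYNE4 had a log2 difference of 0.04 (SE 0.0911).

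Among 12 other genes listed for the inner membrane, torsins and lamina partners, 8 fell, 2 rose and 2, LEMD2 and IFFO1, did not pass. Their median was -0.51. The largest adjusted p among the 8 falls was 0.0422 in limma's test, and unnamed genes were not followed singly under the alternatives. The shares over all genes were 24.6% lower and 20.6% higher. NEMP1, an inner membrane protein gene, fell from 10.54 and 10.57 to 7.45 and 7.66, a log2 difference of -3.00 (95% interval -3.23 to -2.77, adjusted p = 8.86e-07 in limma's test). NRM, which encodes nurim, fell 4.04-fold, from 9.76 and 9.50 to 7.63 and 7.6. The torsin ATPase genes in the list, TOR1A and TOR1B, went opposite ways. TOR1A rose 2.11-fold, from 8.97 and 8.95 to 10.01 and 10.07, while TOR1B was 3.42-fold lower, from 9.84 and 9.74 to 7.93 and 8.10. PRR14, which ties heterochromatin to the lamina, rose 1.82-fold (adjusted p = 0.000177).

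Of 4 measured genes for enzymes that mature the lamin tail, 3 fell and FNTA, a farnesyltransferase subunit gene, rose 1.33-fold. The shares over all genes were 24.6% lower and 20.6% higher. ZMPSTE24, the protease that cuts prelamin A, read 11.03 and 11.04 uninduced and 9.99 and 10.09 induced, 1.99-fold lower (adjusted p = 5.39e-05 in limma's test), while its substrate gene LMNA rose. RCE1 and ICMT, the other steps of tail processing, were 1.31-fold and 1.30-fold lower. The FNTA call ended whichever array was left out (adjusted p = 0.0532 to 0.11), that of RCE1 without uninduced array 1 or 2 or induced array 2 (0.0518 to 0.0974), and that of ICMT without uninduced array 1 or 2 (0.0795 and 0.092).

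In the list of chromatin partners of the lamina and genes acting with BANF1, 9 of 9 were called, 6 lower and 3 higher. The largest adjusted p among them was 0.0346 in limma's test. Genes of the list not named here were not followed singly under the alternatives. Among all genes tested, 45.1% were called, 24.6% lower and 20.6% higher. VRK1, which phosphorylates BANF1 and so releases it from DNA, fell 4.92-fold, from 9.97 and 10.05 to 7.60 and 7.82 (adjusted p = 2.64e-06 in limma's test), whereas its relative VRK2 rose 1.57-fold. CBX5, the heterochromatin protein HP1α that binds LBR, read 12.16 and 12.19 uninduced and 10.41 and 10.88 induced, 2.89-fold lower (adjusted p = 0.000101). RB1, whose protein is held in the nucleus by lamin A and a LAP2 form, rose 2.69-fold, from 10.03 on both arrays to 11.43 and 11.48. ANKLE1, a LEM-domain nuclease gene, rose 1.32-fold, a call that ended without uninduced array 1, uninduced array 2 or induced array 1 (adjusted p = 0.0951 to 0.214) and with all rows tested (0.0517).

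Sterol synthesis genes listed beside LBR, not all of them reductases, moved in both directions. TM7SF2, which encodes the other sterol C14 reductase, rose 6.96-fold, from 7.96 and 7.80 to 10.75 and 10.61 (log2 difference 2.80, SE 0.0982, adjusted p = 1.13e-06 in limma's test), while LBR fell. The other 3 genes of that list fell: CYP51A1, the step before it, 3.60-fold, DHCR7 2.22-fold and MSMO1 1.26-fold. Calls over all genes were 24.6% lower and 20.6% higher. The MSMO1 call ended whichever array was left out (adjusted p = 0.0503 to 0.172). LBR minus TM7SF2 within an array was 1.80 and 2.01 uninduced and -1.94 and -1.56 induced.

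**Figure D5:**
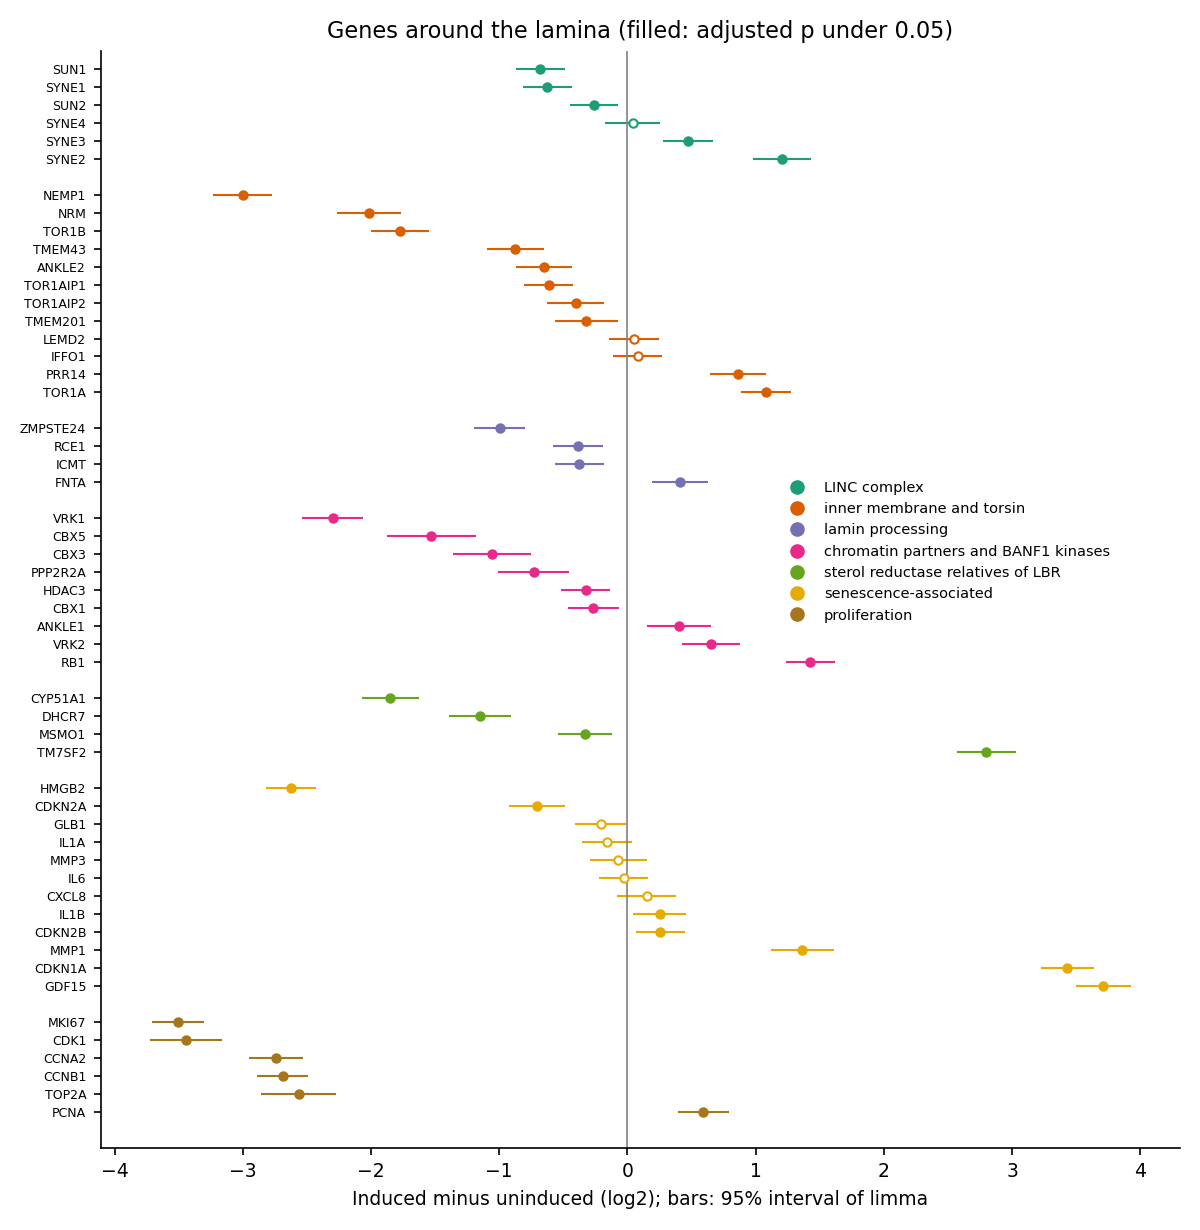
Induced minus uninduced difference (log2) with limma's 95% interval for 53 genes in 7 lists around the lamina, coloured by list, filled where the adjusted p is under 0.05. NEMP1 at -3.00, VRK1 at -2.30 and HMGB2 at -2.62 are among the falls, and TM7SF2 at 2.80, RB1 at 1.42 and SYNE2 at 1.21 lie to the right.

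Senescence-associated genes gave no single direction: of 12 measured, 5 rose, 2 fell and 5 did not pass, with a median of 0.06. The list was not built for 1 direction, since HMGB2 is a mark by its loss, so its median does not measure senescence. Among all genes tested, 20.6% were called higher, 24.6% lower and 45.1% in either direction. GDF15, a secreted stress factor, read 7.69 and 7.53 uninduced and 11.34 and 11.30 induced, 13.1-fold higher, and CDKN1A, the p21 inhibitor of cell cycle kinases, was 10.8-fold higher. HMGB2, a chromatin protein whose loss, like that of lamin B1, is a known senescence mark, fell 6.17-fold, from 9.17 and 9.11 to 6.53 and 6.5 (adjusted p = 8.55e-07 in limma's test). MMP1, a collagenase gene, rose 2.58-fold, and CDKN2A, the p16 and ARF gene, fell by 0.70 on the log2 scale. CDKN2B and IL1B passed with differences of 0.26 and 0.25 (adjusted p = 0.0362 and 0.0496), and both calls ended whichever array was left out (adjusted p = 0.0646 to 0.182 and 0.0609 to 0.255). With all rows tested both calls also ended (0.0674 and 0.092), and that of IL1B ended with an intensity trend (0.125) and with the replicate number as a block (0.0834) too. GLB1, IL6, IL1A, CXCL8 and MMP3 did not pass, with differences of -0.21 (SE 0.0835), -0.03 (SE 0.081), -0.16 (SE 0.0815), 0.15 (SE 0.0987) and -0.07 (SE 0.0958). IL6 read 5.59 to 5.64 and IL1A 5.01 to 5.20 over the 4 arrays. Both, like IL1B and MMP3, lay under the 40th percentile used to drop dim probe sets. The GLB1 difference passed without dim probe sets (adjusted p = 0.0431) and with an intensity trend and a robust prior (0.0289).

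As checks of the libraries, CDKN1A and MDM2, both direct p53 targets, were 10.8-fold and 7.39-fold higher on the induced arrays, and correlations across genes, which are not independent replicates, were 0.997 and 0.995 within the groups and 0.917 to 0.921 between them. Of 5 epithelial markers, 1 passed, KRT8, a keratin gene, which rose 2.21-fold. For all marker counts here, the share called over all genes is 45.1% in either direction. Of 2 mesenchymal markers of the line, VIM fell by 0.40 (adjusted p = 0.00556 in limma's test), from 12.72 to 12.32 as group means, and CDH2 fell by 0.34 (adjusted p = 0.011), from 10.37 to 10.02. The VIM call ended without uninduced array 1 or 2 (0.065 and 0.088), and the CDH2 call without uninduced array 1 or 2 or induced array 1 (0.0519 to 0.116). The part of these changes in the results on the lamina genes was not tested. Of 12 blood, fibroblast and endothelial markers, 1 passed, CD3E with a difference of 0.26, a call that ended whichever array was left out (adjusted p = 0.0632 to 0.183), with all rows tested (0.0654) and with an intensity trend (0.101). Their summed log2 levels per list ranged from 20.86 to 21.46 uninduced and 20.91 to 21.52 induced for blood, 29.45 to 29.66 and 29.51 to 29.54 for fibroblasts, and 18.15 to 18.21 and 18.38 to 18.99 for endothelium. An array gives no true zero and levels of different probes are not comparable, so no marker can be called present or absent from its level.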

How the data were processed

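RNA was labelled with biotin and hybridised to a whole-transcript Affymetrix array. The submitters' processing notes name Affymetrix Expression Console and RMA, and the deposited values are log2 levels, 1 per probe set. Build, versions and filters: not given in the sources used here. RMA makes the arrays' probe intensities equal in distribution before they are summarized, so a change of all messages together would be hidden. The array medians of the deposited values ranged from 7.26 to 7.33. Of 33297 rows, 19460 had 1 gene symbol in the platform annotation, and the brightest row per gene left 18417 genes. Titles gave the groups. Induced and uninduced arrays were compared in R 4.3.3 with limma 3.58.1 under a constant prior, two-sided, with 7.2 degrees of freedom in total, 2 of them residual. The fit was tested on simulated data. Intervals are at 95%; the number of arrays limits the precision. Figures used Python 3.11.15.

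The members and lists were chosen with earlier results of these data known. The rule named the 8 members, the 2 largest changes in each list, members called against their list's majority, and the 5 genes nearest LMNB1. TOR1B, SYNE1, SUN2, SYNE4, LEMD2, IFFO1, RCE1, ICMT, DHCR7, MSMO1, MMP1, CDKN2B, IL1B, GLB1, IL6, IL1A, CXCL8, MMP3, KRT8, VIM, CDH2, CD3E and the pair LBR and TM7SF2 were named, and the 5 lists counted together, after their values were seen. FNTB, HMGB1 and some other listed genes are not reported here. Alternatives were a second quantile normalization, median centring, dropping probe sets under the 40th percentile, averaging probe sets, all rows, an intensity trend with a robust prior, the replicate number as a block, and leaving out each array.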

Additional observations from a re-analysis of the deposited data

How the results depend on the processing

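No member changed direction under any of the alternatives tried. LMNA, LMNB1, LMNB2, LBR and TMPO kept their calls in all 11, with LMNB1 between -2.51 and -2.34 and LMNA between 1.16 and 1.22. EMD gained a call with an intensity trend and a robust prior (0.18, adjusted p = 0.0364), which made 2 members higher, and LEMD3 lost its call without uninduced array 2, its differences without 1 array ranging from -0.75 to -0.59. The dimmer BANF1 probe set gave -0.17, and the mean of both gave -0.555. Without 1 array, 13 to 19 of the genes in the 5 lists around the lamina were called lower, against 23. LMNB1 minus LMNA shifted by -3.68 to -3.50. Arrays with the same replicate number deviated together with r = 0.225 across genes, but 2 pairs do not show a pairing; with the replicate number as a block 7820 genes were called, 1 lamina gene higher and 6 lower. When 1 array is left out, the lone array of its group is assumed to vary like the other group. Of 51 other genes named, all but IL6, MMP3 and SYNE4 kept their direction; these 3 were not called, with IL6 at 0.02 after median centring and, when 1 array was left out, MMP3 between -0.165 and 0.025 and SYNE4 between -0.03 and 0.11. The scalings moved the median of all genes by 0.035 and 0.05. The small number of arrays, and the absence of a detection call, limit what can be said of dim genes.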
